A study of Mus musculus with 9 samples.

Results

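The genes described here act in programmed cell death. They are the caspase genes Casp1, Casp4, Casp6, Casp8 and Casp9, the gasdermin genes Gsdmd and Gsdme, and Ninj1. They were chosen by name, as 8 of the 19072 gene identifiers in the deposited tables. Gsdme appears there under its older symbol Dfna5. All 8 were listed in all 9 libraries and all 8 passed the filter on low counts.

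RNA was sequenced from 9 libraries of 4T1-TGL, a breast cancer cell line derived from 4T1 and, per the labels, of the mouse strain BALBC. All cells were grown in DMEM/F12 medium. The 3 Ctrl libraries have the genotype WT, and the 3 KO1 and 3 KO2 libraries come from a pair of lines labelled Malat1 KO, Malat1 being an abundant nuclear long noncoding RNA. The labels do not say how the knockouts were made, whether each line is a clone, or whether libraries of a group came from separate cultures, so the p-values below measure only the spread between libraries, which may be technical. The series concerns the response of these cells to Malat1 loss, and the comparisons are KO1 against Ctrl, KO2 against Ctrl and, as the test of the difference between the lines, KO2 against KO1. The first 2 share the Ctrl libraries.

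The libraries held between 30655924 and 35406395 expected counts. Malat1 itself was at 74.11, 58.12 and 69.52 FPKM in Ctrl, at 0.58, 0.54 and 0.39 in KO1, and at 16.54, 22.16 and 13.4 in KO2, so the KO2 libraries kept part of the signal (edgeR log2 fold change -1.88 in KO2 and -7.08 in KO1). FPKM, which scales fragments to transcript length and library size, is used here for levels between genes. Of 8 epithelial markers only Krt8 and Krt18 were above 1 CPM (counts scaled to library size) in each group, and the epithelial list summed to 700 to 718 CPM in Ctrl, 1170 to 1400 in KO1 and 2120 to 2320 in KO2. Epcam, at 0.449 CPM in Ctrl, and Cdh1, at 0.0497, were near 0. Of 11 leukocyte markers only Cd68 and Cd14 were above 1 CPM. The leukocyte list summed to 37.7 to 41.4 CPM in Ctrl, 45.7 to 58.4 in KO1 and 29.5 to 34.4 in KO2. The defining Ptprc was at 0.0201 CPM in Ctrl, 0.0405 in KO1 and 0 in KO2, and of 7 T and NK cell markers Cd3d, Cd4, Nkg7 and Ncr1 were at 0 in all 9 libraries, while Lck was at 3.79 CPM in Ctrl, 4.17 in KO1 and 1.78 in KO2. The list of 9 fibroblast markers summed to 320 to 329 CPM in Ctrl, 281 to 306 in KO1 and 160 to 166 in KO2, led by Pdgfra (281, 257 and 141 CPM), with Thy1 at 0 in all libraries. The list of 6 endothelial markers summed to 74.1 to 86.8, 50.4 to 58.3 and 76.5 to 85.5 CPM. That sum was nearly all Eng (66.8, 50.3 and 75.7 CPM) and Plvap (12.4, 3.55 and 3.11). Pecam1, Cdh5, Kdr and Tek were at 0.463 CPM or less in each group. The part of these differences in the results below was not tested.

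Caspases are cysteine proteases made as inactive zymogens. Caspase-1 and caspase-11, which Casp4 encodes in the mouse, are activated on inflammasomes or by cytosolic lipopolysaccharide and cleave gasdermin D, whose released fragment forms pores in the plasma membrane and causes pyroptosis. Caspase-8 and caspase-9 start the extrinsic and the mitochondrial route of apoptosis, caspase-6 is grouped with the executioner caspases, gasdermin E is opened by executioner caspases, and ninjurin-1 carries out the rupture of the plasma membrane that follows.

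Casp1 and Casp4 are neighbours, and the stretches around their start sites are shown here with that of the next caspase gene, Casp12, because these 3 genes moved differently in the lines. Each stretch runs from 250 bases before the RefSeq start site to 50 after it on the plus strand of GRCm38.p6 (Casp1 at chr9:5298267-5298566, Casp4 at chr9:5308599-5308898, Casp12 at chr9:5345226-5345525). Capitals mark matches to the NF-kB consensus (Casp4) and to the palindromic element TTCNNNGAA (Casp12).
Casp1: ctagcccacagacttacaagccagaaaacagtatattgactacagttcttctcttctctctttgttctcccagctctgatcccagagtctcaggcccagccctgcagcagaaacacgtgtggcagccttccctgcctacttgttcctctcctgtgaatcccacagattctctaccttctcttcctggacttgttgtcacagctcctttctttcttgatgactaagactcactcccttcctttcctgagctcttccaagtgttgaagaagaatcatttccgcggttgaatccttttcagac
Casp4: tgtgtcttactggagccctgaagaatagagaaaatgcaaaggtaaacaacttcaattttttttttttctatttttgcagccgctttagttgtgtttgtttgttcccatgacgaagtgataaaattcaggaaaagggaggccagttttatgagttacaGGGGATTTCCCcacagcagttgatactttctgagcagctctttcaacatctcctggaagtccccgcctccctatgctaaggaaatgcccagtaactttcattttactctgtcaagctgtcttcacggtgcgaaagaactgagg
Casp12: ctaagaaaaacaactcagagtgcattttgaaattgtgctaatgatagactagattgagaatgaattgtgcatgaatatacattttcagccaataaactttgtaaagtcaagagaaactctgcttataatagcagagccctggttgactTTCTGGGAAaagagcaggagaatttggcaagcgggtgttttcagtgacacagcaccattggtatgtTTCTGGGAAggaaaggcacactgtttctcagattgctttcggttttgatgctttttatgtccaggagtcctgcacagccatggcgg
The Casp4 stretch held 2 overlapping matches to the NF-kB consensus, GGGGATTTCC from base -93 and GGGATTTCCC from base -92 relative to the start site. From another RefSeq start of Casp4 a few bases downstream, the same matches begin at -104 and -103. A match to the NF-kB consensus stood in 4.51% of the 32851 RefSeq promoters of 300 bases. Casp12 held TTCTGGGAA at -102 and again at -36, and a match to TTCNNNGAA on either strand stood in 8.30% of promoters. The interferon-response element, searched as GAAA and GAAA with 2 bases between (3.44% of promoters), the AP-1 element TGANTCA (7.81%) and the GC box GGGCGG (35.7%), searched on both strands, had no match in any of these 3 stretches, and Casp1 had none of the 6 motifs searched. The sixth, the CRE core TGACG (20.8% of promoters), matched once in Casp4. The Casp12 start site used here lies inside the gene span given below, so its positions are relative to an internal start. A match is a description of letters and not a site of binding.

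The members with a RefSeq promoter entry (7 of 8, Gsdmd being the exception) fell apart by base composition. Casp1 had 3 CpG dinucleotides in its 300 bases, Casp4 5 and Casp8 5, under the median of 7 over all promoters. Casp6 had 16, Gsdme 24, Casp9 28 and Ninj1 37. The Casp8 stretch (chr1:58802252-58802551) and the Gsdme stretch (chr6:50261720-50262019, minus strand) lie inside the gene spans given below. Their counts are thus for an internal start site and not for the outer start of the gene. The GC box GGGCGG itself holds a CpG, so its counts are not a feature separate from this division. It had 3 matches in Casp6, 4 in Casp9, 7 in Ninj1, 1 in Gsdme and none in Casp1, Casp4 and Casp8.

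In Ctrl cells the initiator Casp8 and the pore-former Gsdmd were the most abundant of the 8 transcripts per length. Casp8 (27.6 ± 0.923 FPKM, SD, n = 3) and Gsdmd (25.8 ± 1.11) overlapped, and Ninj1 (22.8 ± 0.0954) followed with no overlap. Casp1 (15.4 ± 0.878), Casp6 (13.9 ± 3.84) and Casp4 (10.9 ± 0.896) came next, Casp6 overlapping both of its neighbours. Casp9 (5.51 ± 0.553) and Gsdme (5.00 ± 0.643) were lowest and overlapped. Among the 13541 genes listed in all 9 libraries, 76.8% lay below Casp8 in Ctrl and 33.3% below Gsdme. The order was not the same in the knockouts. Casp1 led in KO1, above every Casp8 library, and Casp4 was last in KO2, below every Casp9 library.

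**Figure D1:**
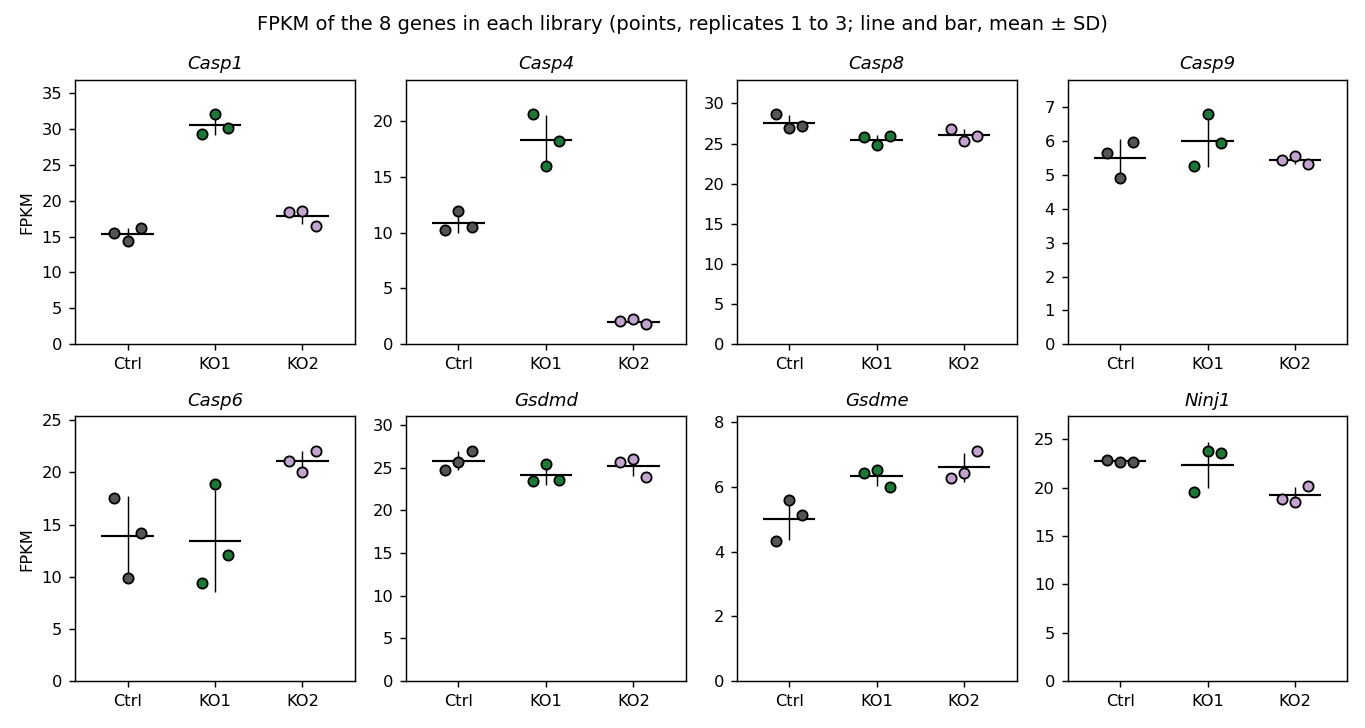
FPKM (y axis, starting at 0, scale differing between panels) of the 8 genes in the 3 Ctrl, 3 KO1 and 3 KO2 libraries; points are libraries in replicate order, lines means and bars SD. Casp1 is highest in KO1, Casp4 is lowest in KO2, Casp6 is spread widely in Ctrl and KO1, and Gsdmd overlaps in every pair of groups.

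Casp1, the inflammasome protease, was higher in both knockout lines, and by more in KO1. It was measured at 15.55, 14.42 and 16.15 FPKM in Ctrl, at 29.37, 32.06 and 30.13 in KO1, and at 18.48, 18.56 and 16.53 in KO2. All KO1 libraries stood above all KO2 libraries and all KO2 libraries above all Ctrl libraries, the closest being KO2 replicate 3 and Ctrl replicate 3. On the scaled counts Casp1 rose by 0.95 on the log2 scale in KO1 (SE 0.0779, 95% interval 0.782 to 1.13, adjusted p = 5.55e-06 by edgeR's quasi-likelihood test with Benjamini-Hochberg adjustment over 13682 genes). In KO2 it rose by 0.29 (SE 0.0783, interval 0.122 to 0.466, adjusted p = 0.00828). The lines differed: Casp1 was lower in KO2 than in KO1 (log2 fold change -0.66, SE 0.0775, adjusted p = 3.16e-05). Its counts per library ran from 768 to 780 in Ctrl and from 1418 to 1504 in KO1. Of the 2 leukocyte markers above 1 CPM, Cd68 was at 17.7 CPM in Ctrl, 32.7 in KO1 and 13.2 in KO2. The other, Cd14, was at 21 CPM in Ctrl, 20.4 in KO1 and 18 in KO2. Ptprc and Adgre1 were at or near 0 in all groups.

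Casp4, the gene of the lipopolysaccharide-sensing caspase-11, moved in opposite directions in the 2 lines. It was measured at 10.23, 11.91 and 10.53 FPKM in Ctrl, at 20.63, 16.02 and 18.22 in KO1, and at 2.06, 2.22 and 1.78 in KO2. No library of one group overlapped another group, and the KO2 mean was 18.5% of the Ctrl mean while the KO1 mean was 168% of it. In KO1 Casp4 rose by 0.72 on the log2 scale (SE 0.114, 95% interval 0.468 to 0.967, edgeR adjusted p = 0.000693). In KO2 its log2 fold change was -2.33 (SE 0.13, edgeR adjusted p = 7.99e-08), the largest change of any member. Between the lines the log2 fold change was -3.04 (SE 0.13, edgeR adjusted p = 9.5e-09). The fall left 77 to 95 counts per KO2 library against 463 to 576 in Ctrl.

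The ratio of Casp1 to Casp4 in FPKM shows how the pair came apart. It was 1.52, 1.21 and 1.53 in the Ctrl libraries, 1.42, 2.00 and 1.65 in KO1, and 8.97, 8.36 and 9.29 in KO2. Ctrl and KO1 overlapped, and every KO2 library was several times above both.

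These genes lie head to tail on chromosome 9 of GRCm38. Casp1 (gene 12362) spans 5298517 to 5307281, Casp4 (gene 12363) follows after 1567 bases at 5308849 to 5336791, and Casp12 (gene 12364) after a further 8650 bases at 5345442 to 5373034. Casp12, a caspase of the same inflammatory group, was at 12.17, 10.26 and 10.88 FPKM in Ctrl, 13.06, 14.22 and 13.01 in KO1, and 5.99, 6.51 and 5.25 in KO2. Its KO2 libraries were all below Ctrl, as for Casp4 and unlike Casp1. Casp12 fell in KO2 (log2 fold change -0.83, edgeR adjusted p = 3.87e-05), and in KO1 its log2 fold change of 0.24 did not pass the test (edgeR adjusted p = 0.0787). The share of the Ctrl level kept in KO2 was thus not uniform along this stretch, with Casp1 above Ctrl and both downstream genes below it.

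**Figure D2:**
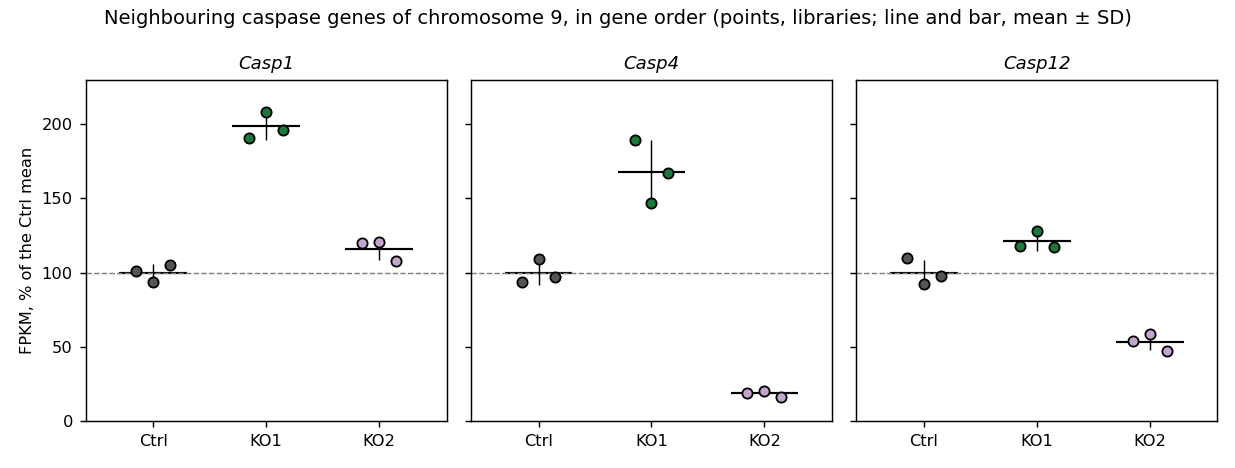
FPKM as a percentage of the Ctrl mean (y axis, starting at 0) for Casp1, Casp4 and Casp12 in their order on the chromosome; points are the 3 libraries of each group, lines means and bars SD, and the dashed line is the Ctrl mean. Casp1 lies above the line in both lines, while Casp4 and Casp12 lie below it in KO2.

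The genes whose profile over the 6 knockout libraries was nearest to that of Casp4, by root mean square difference of log2 CPM relative to Ctrl, were Parp14 (0.122), Ccn2 (0.198) and Slc11a2 (0.267). Parp14, which encodes an ADP-ribosyltransferase, had log2 fold changes of 0.66 in KO1 and -2.24 in KO2. For Casp1 the nearest were Per3, a circadian clock gene (0.069), 2810021J22Rik (0.0918) and Mtss1 (0.0994).

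Casp8, the initiator of the death receptor route, stayed within a narrow band. It was measured at 28.65, 26.96 and 27.16 FPKM in Ctrl, at 25.8, 24.77 and 25.91 in KO1, and at 26.85, 25.33 and 25.98 in KO2. By FPKM every knockout library was below every Ctrl library, although KO2 replicate 1 came close to Ctrl replicate 2. Of all genes listed in every library, 17.4% were lower than Ctrl without overlap in KO1 and 38.6% in KO2. Scaled by total counts the log2 fold change in KO2 was -0.0803 (edgeR adjusted p = 0.291). On the TMM-scaled counts no change passed the test, with a log2 fold change of -0.13 in KO1 (95% interval -0.265 to 0.00666, edgeR adjusted p = 0.14) and of -0.00329 in KO2 (interval -0.139 to 0.133, edgeR adjusted p = 0.968). Casp8 is on chromosome 1 at 58795233 to 58847503 and was the deepest-counted caspase of the set.

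Casp9, the apoptosome protease on chromosome 4 at 141793612 to 141815978, was measured at 5.65, 4.9 and 5.98 FPKM in Ctrl, at 5.27, 6.8 and 5.94 in KO1, and at 5.45, 5.56 and 5.32 in KO2. The 3 groups overlapped. The 95% intervals of its log2 fold change reached from -0.142 to 0.329 in KO1 and from -0.178 to 0.295 in KO2, and neither passed the test (edgeR adjusted p = 0.545 and 0.669). Its span overlaps Cela2a, and the strand setting of the counting is not given in the sources used here.

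Casp6, counted among the executioners, was higher in KO2 and uneven elsewhere. It was measured at 17.52, 9.86 and 14.21 FPKM in Ctrl, at 9.4, 18.88 and 12.07 in KO1, and at 21.05, 20.08 and 22.06 in KO2. All KO2 libraries lay above all others, but Ctrl and KO1 each held a high, a middle and a low library, with a coefficient of variation of 27.7% in Ctrl and 36.3% in KO1 against 4.7% in KO2. Casp6 rose in KO2 by 0.68 on the log2 scale (SE 0.258, 95% interval 0.102 to 1.26, edgeR adjusted p = 0.0482), and was 0.75 higher in KO2 than in KO1 (SE 0.259, edgeR adjusted p = 0.0326). In KO1 its log2 fold change was -0.07 (interval -0.657 to 0.513, edgeR adjusted p = 0.867). The KO2 call was lost in 12 of 20 alternative analyses, among them those without Ctrl replicate 2 (0.49, edgeR adjusted p = 0.138), without Ctrl replicate 3 (p of 0.0982 after adjustment) or KO1 replicate 3 (0.0618), and without KO2 replicate 1 (0.0917), 2 (0.0822) or 3 (0.116). The KO2 against KO1 call was lost in 8, with edgeR adjusted p = 0.0981 without KO1 replicate 1, 0.0989 without KO1 replicate 3, and 0.0664, 0.0593 and 0.0852 without KO2 replicate 1, 2 and 3. The low libraries, Ctrl replicate 2 and KO1 replicate 1, also deviated together from their group means across genes (r = 0.34), as did the high ones, Ctrl replicate 1 and KO1 replicate 2 (r = 0.24); the part of this in the Casp6 values was not tested. Casp6 is on chromosome 3 at 129901415 to 129914112, where RefSeq also places Gm46825 and Gm40150.

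Gsdmd, the pore-former that caspase-1 and caspase-11 cleave, hardly varied in FPKM. It was measured at 24.79, 25.69 and 26.99 FPKM in Ctrl, at 23.44, 25.41 and 23.59 in KO1, and at 25.67, 26.07 and 23.92 in KO2. The groups overlapped in every pair. On the counts it passed neither test against Ctrl, with log2 fold changes of -0.09 in KO1 (95% interval -0.253 to 0.0722, edgeR adjusted p = 0.39) and 0.13 in KO2 (interval -0.0343 to 0.29, edgeR adjusted p = 0.164; -0.03 with limma on log2(FPKM + 1)). KO2 stood 0.22 above KO1 (SE 0.0739, edgeR adjusted p = 0.0267), a call made on counts while the mean FPKM differed by a ratio of 1.04. That call was lost in 7 of 20 alternatives, with adjusted p = 0.0604 without KO1 replicate 1, 0.0878 without KO1 replicate 3, 0.0718 without KO2 replicate 1 and 0.0979 without KO2 replicate 2. Scaled by total counts the difference was 0.11 (edgeR adjusted p = 0.23), and with limma on log2(FPKM + 1) it was 0.06 (adjusted p = 0.432). FPKM also divides by transcript length, on average 1955 bases in KO1 and 2020 in KO2. The ratio of Gsdmd to Casp1 in FPKM went from 1.59, 1.78 and 1.67 in Ctrl to 0.798, 0.793 and 0.783 in KO1, and was 1.39, 1.40 and 1.45 in KO2.

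The transcript length of some members also differed between the groups. The tables give for each gene and library the length to which FPKM was scaled, which moves with the mix of transcripts to which reads were assigned. For Gsdmd, on chromosome 15 at 75862144 to 75867408, the counting used a RefSeq transcript and 1 unnamed model of the sequencing provider. The Gsdmd length was 1920.49, 1870.94 and 1931.74 bases in Ctrl, 1955.98, 1951.1 and 1957.83 in KO1, and 2007.72, 2074.12 and 1977.21 in KO2. The groups stood in that order without overlap, 47.2 bases apart between KO1 and Ctrl, 64.7 between KO2 and KO1 and 112 between KO2 and Ctrl (exact two-sided permutation p = 0.1 for each, the smallest that 3 against 3 libraries allow). Of the 6605 genes listed in all 9 libraries whose length did vary, 9.93% were longer without overlap in KO1 than in Ctrl. The shares were 19.4% in KO2 against Ctrl and 16.8% in KO2 against KO1. Casp4 was at 1443 bases in all 3 KO2 libraries, with 1431.64, 1414.29 and 1411.92 in Ctrl and 1412.35, 1432.35 and 1417.31 in KO1. It too was counted over a RefSeq transcript and 1 unnamed model. Its KO2 lengths rest on 77 to 95 counts per library, against 463 to 576 in Ctrl, so a rarer transcript could go unseen there. Casp8, counted over 3 RefSeq transcripts, was longer in KO1 (2522.38, 2522.37 and 2493.12 bases) than in Ctrl (2485, 2487.24 and 2491.13). In KO2 (2499.29, 2487.46 and 2487.51) Casp8 overlapped Ctrl. Casp1 overlapped Ctrl in both lines, with mean differences of -6.17 bases in KO1 and 0.627 in KO2. Casp1 was longer in KO2 than in KO1 without overlap, by 6.8 bases. Casp9 overlapped in every pair of groups. Casp6, Gsdme and Ninj1, with 1 transcript each, had a fixed length.

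**Figure D3:**
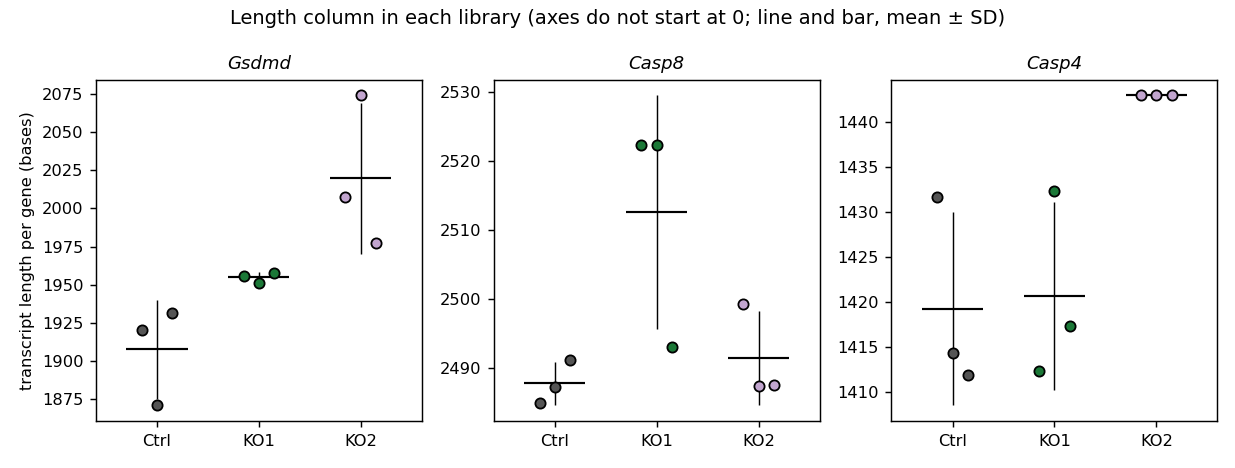
Transcript length per gene in bases (y axis, not starting at 0) for Gsdmd, Casp8 and Casp4 in the 3 libraries of each group; points are libraries, lines means and bars SD. Gsdmd lengthens from Ctrl to KO1 to KO2 without overlap, Casp8 is longer in KO1 than in Ctrl, and Casp4 is at 1443 bases in every KO2 library. Casp4 had only 77 to 95 counts per KO2 library.

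Gsdme, the gasdermin that executioner caspases open, had a mean FPKM of 126% of the Ctrl mean in KO1 and of 132% in KO2. It was measured at 4.31, 5.58 and 5.12 FPKM in Ctrl, at 6.43, 6.53 and 6.0 in KO1, and at 6.26, 6.44 and 7.11 in KO2. All 6 knockout libraries exceeded all 3 Ctrl libraries, and the lines overlapped each other. Gsdme rose in KO2 by 0.48 on the log2 scale (SE 0.114, 95% interval 0.226 to 0.728, edgeR adjusted p = 0.00447). In KO1 the log2 fold change was 0.31 (SE 0.114, interval 0.0552 to 0.557) and missed the threshold (edgeR adjusted p = 0.0636), and the lines did not differ by the test (0.17, edgeR adjusted p = 0.22). Without Ctrl replicate 2, the highest Ctrl library, KO1 passed as well (0.40, edgeR adjusted p = 0.0288), and without Ctrl replicate 1, the lowest, it was at 0.21 (edgeR adjusted p = 0.207). KO1 passed in 4 of 20 alternatives. With all libraries kept, it passed with total count scaling (0.335, edgeR adjusted p = 0.0417). It also did with limma on log2(FPKM + 1) (0.291, adjusted p = 0.0352) and on log2(FPKM + 0.1) (0.338, adjusted p = 0.0357). The ratio of Gsdmd to Gsdme was 5.75, 4.60 and 5.27 in Ctrl, 3.65, 3.89 and 3.93 in KO1, and 4.10, 4.05 and 3.36 in KO2, so every knockout library was below every Ctrl library. Gsdme is on chromosome 6 at 50207401 to 50263857.

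Ninj1, the rupture factor on chromosome 13 at 49187529 to 49196251, was measured at 22.87, 22.7 and 22.71 FPKM in Ctrl, at 19.56, 23.81 and 23.62 in KO1, and at 18.82, 18.57 and 20.22 in KO2. The Ctrl libraries were nearly identical and the KO2 libraries all lay below them, while KO1 replicate 1 fell among the KO2 values and the other two exceeded Ctrl. On the counts neither line passed the test, with log2 fold changes of -0.06 in KO1 (95% interval -0.261 to 0.145, edgeR adjusted p = 0.67) and -0.17 in KO2 (interval -0.372 to 0.036, edgeR adjusted p = 0.147). Scaled by total counts, KO2 passed (-0.24, adjusted p = 0.0403), as it did with limma on log2(FPKM + 1) (-0.23, adjusted p = 0.0291).

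Set side by side, 2 of the 8 genes were called in KO1, both higher (Casp1 and Casp4), against 30.5% of all 13682 tested genes (15.6% higher, 14.9% lower). In KO2, 4 were called, 3 higher (Casp1, Casp6 and Gsdme) and 1 lower (Casp4), against 54.1% of all genes (24.6% higher, 29.5% lower). KO2 differed from KO1 in 4, with Casp6 and Gsdmd higher and Casp1 and Casp4 lower, against 55.0% (25.5% higher, 29.5% lower). The totals are near or below the background, and with 8 genes the counts by direction are read no further. Their median log2 fold change was 0.0176 in KO1, 0.0933 in KO2 and 0.0453 between the lines, beside -0.00167, -0.0303 and -0.021 over all tested genes. By FPKM, 3 genes were higher than Ctrl without overlap in KO1 (background 23.0%) and 3 in KO2 (24.2%), while 1 was lower in KO1 (17.4%) and 3 in KO2 (38.6%). Between the lines, Casp6 was higher in KO2 without overlap (background 21.8%), and Casp1 and Casp4 were lower (38.5%). Of all genes called, 45.5% were higher in KO2 against Ctrl and 46.4% in KO2 against KO1. Scaling by total counts took these shares to 35.8% and 33.4%, with the median of all genes at -0.11 and -0.13. The 4 members called between the lines became 2, Casp1 and Casp4, under that scaling and also without KO1 replicate 1, KO1 replicate 3, KO2 replicate 1 or KO2 replicate 2.

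**Figure D4:**
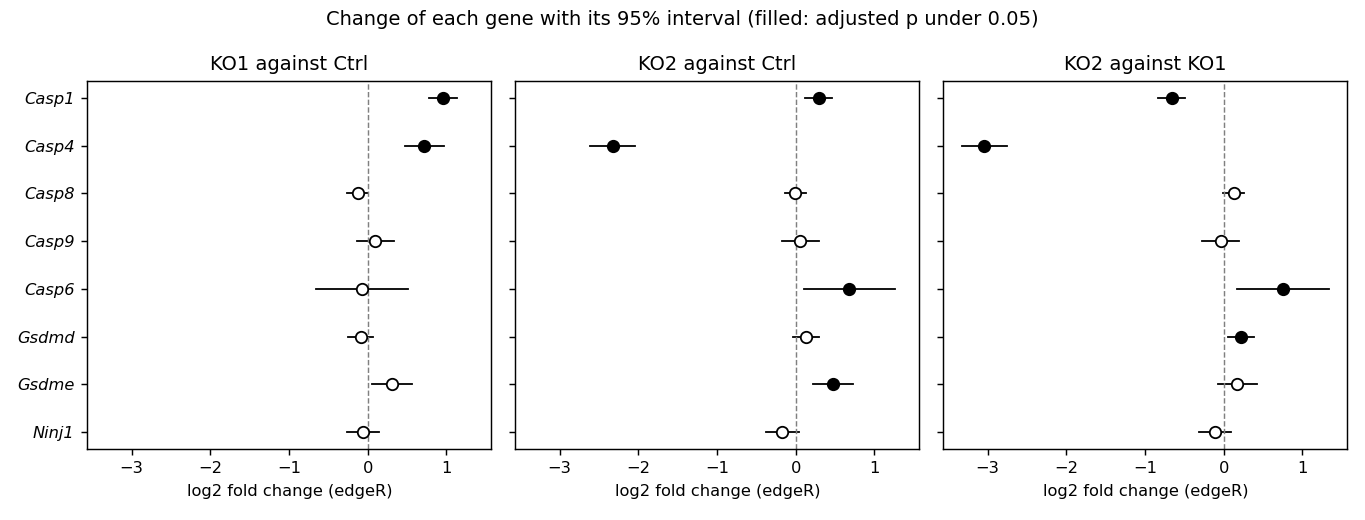
Log2 fold change on scaled counts (x axis) of each of the 8 genes in KO1 against Ctrl, KO2 against Ctrl and KO2 against KO1; points are edgeR estimates, bars 95% intervals, and filled points passed an adjusted p under 0.05. Casp4 in KO2 lies far to the left at -2.33, Casp1 lies right of 0 in both lines, and the interval of Casp6 is the widest.

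The counts for the pathway lists below stand beside the same background. Of all genes, 30.5% were called in KO1 (15.6% higher, 14.9% lower) and 54.1% in KO2 (24.6% higher, 29.5% lower). Between the lines 55.0% were called (25.5% higher in KO2, 29.5% lower). Beyond the 8 genes, no other caspase was called in KO1. Of 6 listed genes, among them Casp2, Casp12 and the caspase-8 homologue Cflar, 5 were tested and none was called in KO1 by edgeR, DESeq2 or limma-voom, where 1 (Casp12) had an unadjusted p under 0.05. In KO2, 2 were higher and 2 lower, with Casp2 at 0.59 and Casp12 at -0.83. Of the other gasdermins, none passed the filter, and the highest level of any was 0.19 FPKM (Gsdmc4). Gsdmd and Gsdme were thus the only gasdermins measured above that level in these cells.

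Upstream of Casp1, the adaptor Pycard, which joins sensors to caspase-1, never exceeded 0.06 FPKM and was listed in 7 libraries, and the sensor Nlrc4 never exceeded 0.01. The list of 17 inflammasome sensors and adaptors also held Nod1, Nod2 and Card9, which are not inflammasome components in the strict sense. Of the 17, 12 were tested. KO1 had 4 higher and 5 lower (median log2 fold change -0.224). KO2 had 1 higher and 7 lower (median -2.06), with Nod2 among the lower in both lines. The DNA sensor Aim2 rose in both lines, from 2.24 ± 0.182 CPM to 7.72 ± 0.693 in KO1 and 4.00 ± 0.138 in KO2. Mefv, which encodes pyrin, rose in KO1 (1.12) and had 0 counts in KO2, at least 68.6-fold lower than Ctrl (the floor is 3 counts for all KO2 libraries together, with what the minimum for listing could conceal added). Nod2 fell in both lines (-2.23 and -7.84), and Naip6 fell in KO1 (-2.99) and had 0 counts in KO2 (at least 47.8-fold lower by the same floor), though reads of the closely similar Naip copies may have been divided among them.

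The list of cytokines and alarmins that leave dying cells also held Il1rn, the gene of the secreted interleukin-1 receptor antagonist, and 8 of 9 were tested. In KO1, 4 were higher, among them Il18, a substrate of caspase-1, which rose from 0.788 ± 0.107 to 4.26 ± 0.188 CPM. The 1 lower in KO1 was Il1rn, which was at only 0.910 ± 0.423 CPM in Ctrl. In KO2 edgeR called none higher and 3 lower, Il1rn among them (2 higher and 3 lower without Ctrl replicate 1). Of the higher ones 1 had an unadjusted p under 0.05, DESeq2 called 1 and limma-voom 2. Il33 fell by 2.91 on the log2 scale after a rise of 1.89 in KO1. The transcript of the other classic substrate, Il1b, was at 0.337 CPM in Ctrl and was not called in either line.

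Partners of caspase-8 and of the apoptosome were called in 6 of 14 cases in KO1 (2 higher, 4 lower) and 7 of 14 in KO2 (2 higher, 5 lower), against 30.5% and 54.1% of all genes. Bid, the BH3 protein that caspase-8 cleaves, rose in KO1 from 21.7 ± 4.62 to 54.1 ± 3.00 CPM, while in KO2 its log2 fold change of -0.33 did not pass the test (edgeR adjusted p = 0.0629). Fas, a death receptor that recruits caspase-8, fell in KO2 from 43.1 ± 8.55 to 0.448 ± 0.0549 CPM. Bcl2 rose in both lines (0.68 and 0.66) and the kinase gene Ripk1 fell in both (-0.44 and -0.60). Ripk3 never exceeded 0.05 FPKM. Of 8 tested caspase inhibitors and their antagonists, 1 was higher and 2 lower in KO1, and 4 were higher and 3 lower in KO2. Birc2 fell in both lines (-0.50 and -1.13), Birc3 fell in KO2 (-1.85), and Birc5 rose in both (0.27 and 0.66).

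Genes that act on the pore came next. Of 12 genes for the lipidation and Ragulator-Rag control of gasdermin D, 1 was higher in KO1 (Rragc, 0.35) and none lower by edgeR (1 at an unadjusted p under 0.05, 1 by DESeq2 and 0 by limma-voom), and 3 were higher and 3 lower in KO2 (without KO1 replicate 1, KO1 had 2 higher), with Zdhhc9, a palmitoyltransferase gene, at -0.69. Of 15 ESCRT-III genes, whose products remove damaged membrane, 2 were higher and 3 lower in KO1 and 2 higher and 5 lower in KO2, against 30.5% and 54.1% called of all genes. Without Ctrl replicate 1, or without KO1 replicate 1, the KO1 count came to 2 higher and 1 lower. Chmp4c rose in KO1 (0.91) and fell in KO2 (-5.69), as Casp4 did. None of the 5 granule proteases that can cleave gasdermins passed the filter, with Ctsg, Gzma and Gzmb listed in no library, Elane in 4 at 0.07 FPKM or less and Prtn3 in 8 at 0.43 FPKM or less. All 4 tested serpins of that list were lower in KO1, and 3 of 4 in KO2, against 14.9% and 29.5% lower of all genes. The exception in KO2 was the most abundant, Serpinb6a (189 ± 15.9 CPM in Ctrl, 210 ± 1.93 in KO2, edgeR adjusted p = 0.165). Serpinb6b went from 48.8 CPM in Ctrl to 1.41 in KO1 and 0.0226 in KO2, and Serpinb1a was at only 0.617 CPM in Ctrl. Serpinb9, the granzyme B inhibitor, fell in both lines (-1.23 and -1.05).

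Transcription factors known to act on these genes came last. Of 14, KO1 had 3 higher and 1 lower (1 and 1 without Ctrl replicate 1, 5 and 1 without KO1 replicate 2). KO2 had 10 lower by edgeR, against 29.5% lower of all genes. None was higher in KO2 by edgeR, DESeq2, limma-voom or an unadjusted p under 0.05. The median log2 fold change was 0.0947 in KO1 and -0.485 in KO2, against -0.00167 and -0.0303 over all genes. In the direct test 11 were lower in KO2 than in KO1, against 29.5% of all genes. Irf1, an interferon-responsive activator, rose in KO1 (0.53) and fell in KO2 (-0.45), and KO2 was below KO1 (-0.98, edgeR adjusted p = 3.23e-07). Stat3 fell in KO2 (-1.58), and Nfkb1 rose in KO1 (0.22) and fell in KO2 (-0.54). Whether these levels bear on Casp1 or Casp4 was not tested.

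**Figure D5:**
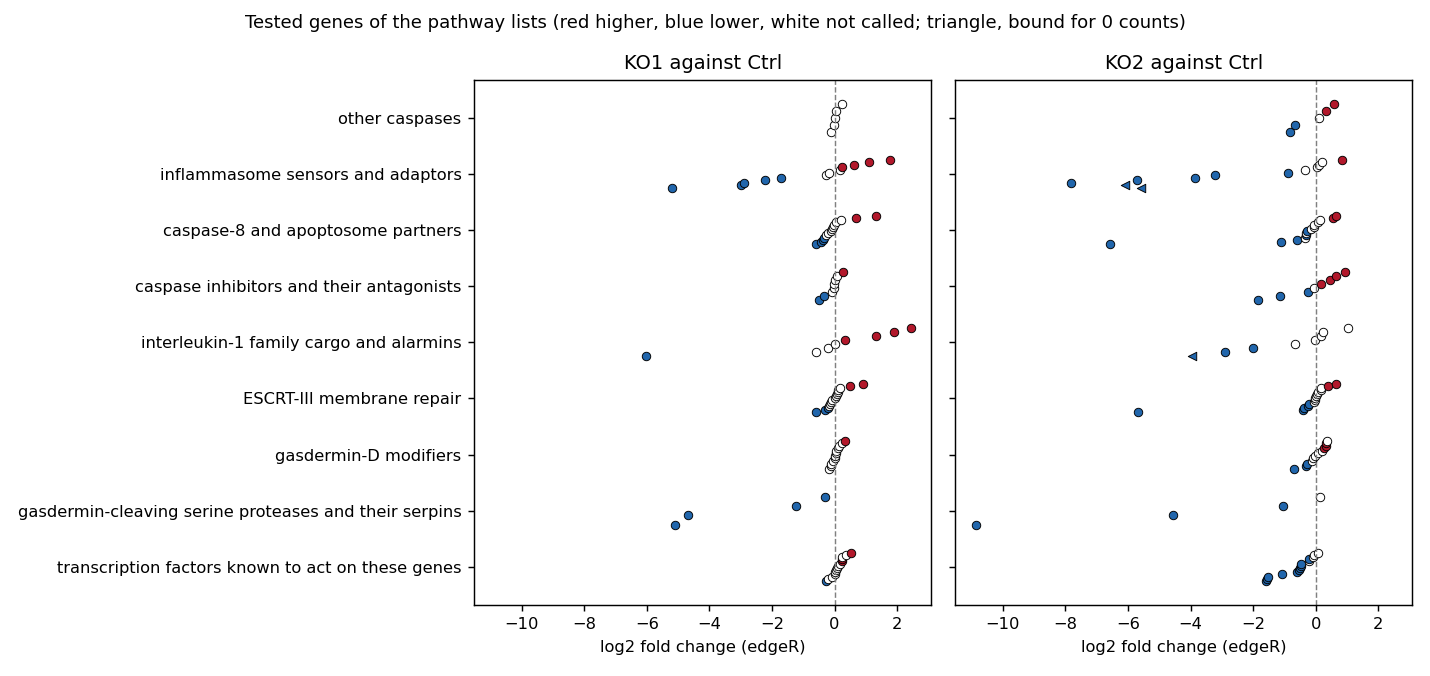
Log2 fold change (x axis) of every tested gene of 9 pathway lists (rows) in KO1 and KO2 against Ctrl; red points were called higher, blue lower, white not called, and triangles are bounds for genes with 0 counts in KO2. The inflammasome row spreads to both sides in KO1 and mostly to the left in KO2, where most of the transcription factor row also lies left of 0.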

How the data were processed

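Gene expression was measured by paired-end RNA sequencing in 9 libraries, grouped by their titles. Per the submitters' processing notes the authors used HISAT and RSEM with the builds mm10 and GRCm38, with versions not given in the sources used here. Per the file headers, the deposited tables hold the RSEM expected count of each gene (estimated reads, not normalized), the authors' FPKM (per kilobase and per library size), and a transcript length in bases. No value under 0.01 FPKM was listed, and genes not listed in a library were taken as 0.

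Expected counts were rounded and analysed in R 4.3.3 by edgeR 4.0.16 (filterByExpr, TMM, robust quasi-likelihood fit over all 9 libraries, 1 coefficient per group, 6 residual degrees of freedom, Benjamini-Hochberg adjustment over 13682 genes, called at an adjusted p under 0.05). Standard errors were derived from the F statistic and are approximate. CPM are after TMM scaling. FPKM was used for levels and ratios. The 8 genes were given by name. From each of 10 pathway lists the genes eligible to be named were up to 2 called genes per direction and line with a mean of at least 1 CPM, and the 3 genes nearest to Casp4 and to Casp1 were taken among those of at least 5 CPM. Cflar, Il1b, Il1rn, Nfkb1, Nod1, Serpinb1a, Serpinb6a and genes under the filter were named outside that rule after their values were seen. The members and lists were chosen with earlier results of these data known. Positions and promoter sequences are from RefSeq (GRCm38.p6, 32851 promoters). The alternatives were other scalings and filters, DESeq2 1.42.0, limma 3.58.1 (voom, and log2 FPKM with pseudocounts of 1 and 0.1), fits to 2 groups at a time, a block for replicate number, omission of each library, and an adjusted p of 0.01. The fit was tested on simulated data. The 8 genes had 77 or more counts in every library, fewest for Casp4 in KO2, where counting error is largest. Some genes of the lists are counted but not reported here by name.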

Additional observations from a re-analysis of the deposited data

Results flagged for a closer look

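The effects in the 2 lines differed, by the direct test of KO2 against KO1 in edgeR's quasi-likelihood fit, for 4 of the 8 genes. For Casp1 the log2 fold change between the lines was -0.66 (adjusted p = 3.16e-05), with both lines above Ctrl. For Casp4 it was -3.04 (adjusted p = 9.5e-09), with the lines on opposite sides of Ctrl in 3 of 3 libraries each. For Casp6 it was 0.755 (adjusted p = 0.0326), with all 3 KO2 libraries above all 3 KO1 libraries. For Gsdmd it was 0.218 (adjusted p = 0.0267), with overlapping FPKM. Of all tested genes 55.0% differed between the lines by the same test.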

How the results depend on the processing

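Across 20 alternative analyses of each log2 fold change, Casp1 and Casp4 kept direction and call in KO1, in KO2 and between the lines, and Gsdme did in KO2. Casp1 ran from 0.91 to 0.985 in KO1 and from 0.203 to 0.341 in KO2, Casp4 from -2.40 to -1.98 in KO2, and Gsdme from 0.345 to 0.57 in KO2. Casp6 and Gsdmd lost calls as given above. The members called in KO2 against KO1 fell from 4 to 2 with total count scaling and at an adjusted p of 0.01, and ran from 2 to 4 with 1 library left out. They ran from 2 to 3 in KO1 and from 3 to 4 in KO2. All genes called in KO1 fell from 4177 to 2620 at 0.01, the stricter threshold.

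The results that changed sign were all uncalled. Casp8 in KO2 (-0.00329) was 0.0081 with DESeq2 size factors, 0.00339 with upper quartile scaling, 0.0216 with no filter, 0.00821 with DESeq2 and 0.0123 with only the 2 groups compared. Casp9 in KO2 was -0.0191 with total count scaling, -0.0115 with log2(FPKM + 1) and -0.0127 with log2(FPKM + 0.1), and Gsdmd in KO2 was -0.0329 and -0.0341 with the latter pair. With 1 library left out, Casp8 in KO2 ran from -0.0229 to 0.0249, Casp9 from -0.0144 to 0.114 in KO2, from -0.0131 to 0.18 in KO1 and from -0.12 to 0.0898 between the lines, Casp6 in KO1 from -0.407 to 0.133, and Ninj1 in KO1 from -0.115 to 0.0294. The cause was not tested. Counts of calls per list moved by over 1.5 times in 28 of 630 cases.

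Replicate numbers did not pair the libraries, since same-numbered libraries had correlations of -0.34 to 0.049 across genes (9 pairs) and others -0.17 to 0.34 (18 pairs). With a replicate block the fit called 2, 3 and 3 members in KO1, KO2 and KO2 against KO1, and 3365, 6726 and 6829 genes in all. The wide Casp6 interval limits what these libraries show of that gene.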
